A study of Mus musculus with 8 samples.

Results

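The genes described here encode the enzymes that break down uracil and thymine (Dpyd, Dpys, Upb1), split uridine (Upp2), salvage uridine and cytidine (Uck1, Uck2, Cda) and build uridine monophosphate from small precursors (Cad, Dhodh, Umps). They were chosen for these roles with earlier results of these data known, and were matched by gene symbol. All 10 were found among the 15210 genes of the deposited table. RNA was measured in livers of 8 female F1-TKm30 mice, 1 library per mouse. The mice have the immunodeficient NOG background and carry, in both groups, cDNA of the HSVtk mutant clone 30 driven by the mouse transthyretin enhancer and promoter, which is active in hepatocytes. Control mice (n = 4) received 0% and treated mice (n = 4) 0.05% MOCA, 4,4'-methylenebis(2-chlorobenzenamine), an aromatic amine used to harden polyurethane, for 4 weeks. The mice were 17 or 21 weeks old, but the labels do not say which mouse had which age, and they do not state the route. The transgene encodes a viral thymidine kinase, which itself phosphorylates pyrimidine nucleosides; its RNA was not analysed here.

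Pyrimidine bases are degraded in the liver in a row of steps that opens with a reduction. Dihydropyrimidine dehydrogenase (Dpyd) reduces uracil or thymine and is the rate-limiting enzyme, also known for inactivating the drug 5-fluorouracil. Dihydropyrimidinase (Dpys) then opens the ring, and beta-ureidopropionase (Upb1) releases beta-alanine or beta-aminoisobutyrate. Uridine is taken apart to uracil by uridine phosphorylases, kept in use by uridine-cytidine kinases, or made anew through orotate, and the liver is a main source of circulating uridine.

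Dpyd was lower in every MOCA liver than in every control liver, and it was the single gene of the 10 that passed the test across all genes. Its level fell by 26.5% on the mean, while the next enzymes of the route, Dpys and Upb1, had overlapping groups and smaller differences. Cad and Umps, which act at the start and the end of de novo synthesis, had higher values in all 4 MOCA mice than in all 4 controls, without passing the test. The remaining 5 genes had overlapping groups.

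Levels are normalised counts (CPM, reads relative to library size, scaled by the authors with factors equal to those of edgeR's TMM method). They are given for control replicates 1 to 4 and then MOCA replicates 1 to 4, or as mean ± SD with n = 4. The log2 fold changes were fitted with limma on log2(value + 1), which understates those of low genes, with MOCA relative to control. A gene was called at a Benjamini-Hochberg adjusted p under 0.05 over the 12008 genes tested. That test called 80 genes, 0.666% of those tested, 48 higher and 32 lower. With equal column sums the split was 131 and 38, and upper quartile scaling made it 46 and 46. Libraries held 15024945 to 17101844 reads, so 1 read was worth 0.0581 to 0.0648. All 10 genes passed the filter on low values, a level of at least 1 in 4 or more libraries.

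The sequences just upstream of the start site are shown for Dpyd, Cad and Umps. These were the members whose groups did not overlap, as was the case for 10.5% of all genes tested. Each line holds the 250 bases before the transcript start given in the table of RefSeq promoters (GRCm38.p6, the mm10 assembly), 5′ to 3′ on the gene's strand, at chr3:118561930-118562179 (plus strand), chr5:31054530-31054779 (plus strand) and chr16:33967039-33967288 (minus strand). For Dpyd and Cad that start lies downstream of where the RefSeq gene record begins, so the last part of each of these 2 lines falls inside the gene span given below. Capitals mark matches to the GC box GGGCGG or the TATA box TATAAA, searched on both strands, so that a GC box can also read CCGCCC.
Dpyd: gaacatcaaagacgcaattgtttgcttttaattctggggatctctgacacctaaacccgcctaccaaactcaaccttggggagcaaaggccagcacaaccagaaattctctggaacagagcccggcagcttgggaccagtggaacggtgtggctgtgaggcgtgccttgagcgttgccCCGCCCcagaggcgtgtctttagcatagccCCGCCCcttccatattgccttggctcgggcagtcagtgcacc
Cad: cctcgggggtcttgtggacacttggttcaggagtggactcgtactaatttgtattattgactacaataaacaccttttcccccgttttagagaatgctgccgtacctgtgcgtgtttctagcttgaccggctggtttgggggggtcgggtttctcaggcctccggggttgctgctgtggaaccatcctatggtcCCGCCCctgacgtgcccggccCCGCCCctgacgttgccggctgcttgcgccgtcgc
Umps: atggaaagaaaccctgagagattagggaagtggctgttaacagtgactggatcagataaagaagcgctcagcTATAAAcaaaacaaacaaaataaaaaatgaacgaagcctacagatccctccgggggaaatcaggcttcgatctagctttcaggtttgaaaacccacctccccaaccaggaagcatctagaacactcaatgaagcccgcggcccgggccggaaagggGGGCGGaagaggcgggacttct
Dpyd and Cad each had 2 GC boxes and no TATAAA, and Umps had 1 GC box and 1 TATAAA, the latter 178 bases before the start. Of all 32851 promoters of the same length in the RefSeq table, 32.7% held a GC box and 12.4% a TATAAA. None of these 3 promoters held the E-box CACGTG (6.02% of all promoters) or CCAAT (33.8%), on either strand. The dinucleotide CG occurred 10 times before Dpyd, 17 times before Cad and 10 times before Umps, against a median of 6 over all promoters. Promoters were found for 8 of the 10 genes, all but Dpys and Dhodh. These matches describe the letters and were not tested for binding.

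Dpyd lies on chromosome 3 (118562109 to 119432924, mm10) and spans 871 kb with 23 exons in a spliced transcript of 4492 bases. In control livers its normalised count was 731, 818, 868 and 825. In MOCA livers it was 619.9, 594, 592 and 576, all below the lowest control, control replicate 1. The means were 811 ± 57.3 and 596 ± 18, from 9136 to 14066 reads per library, so the counting error (0.940% of the mean) was smaller than the spread between mice in either group. The log2 fold change was -0.44 (SE 0.08, 95% interval -0.61 to -0.28, limma adjusted p = 0.0273), and edgeR on the recovered reads gave an adjusted p of 0.028. Of all genes tested, 0.266% were called lower and 4.96% had all MOCA values below all control values. With 1 mouse left out at a time the log2 fold change stayed between -0.49 and -0.41, but the gene was called in 2 of 8 such fits, those without control replicate 1 and without MOCA replicate 1. Its limma adjusted p was 0.0604, 0.0989 and 0.0849 without control replicates 2, 3 and 4, and 0.0697, 0.0666 and 0.0695 without MOCA replicates 2, 3 and 4.

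**Figure D1:**
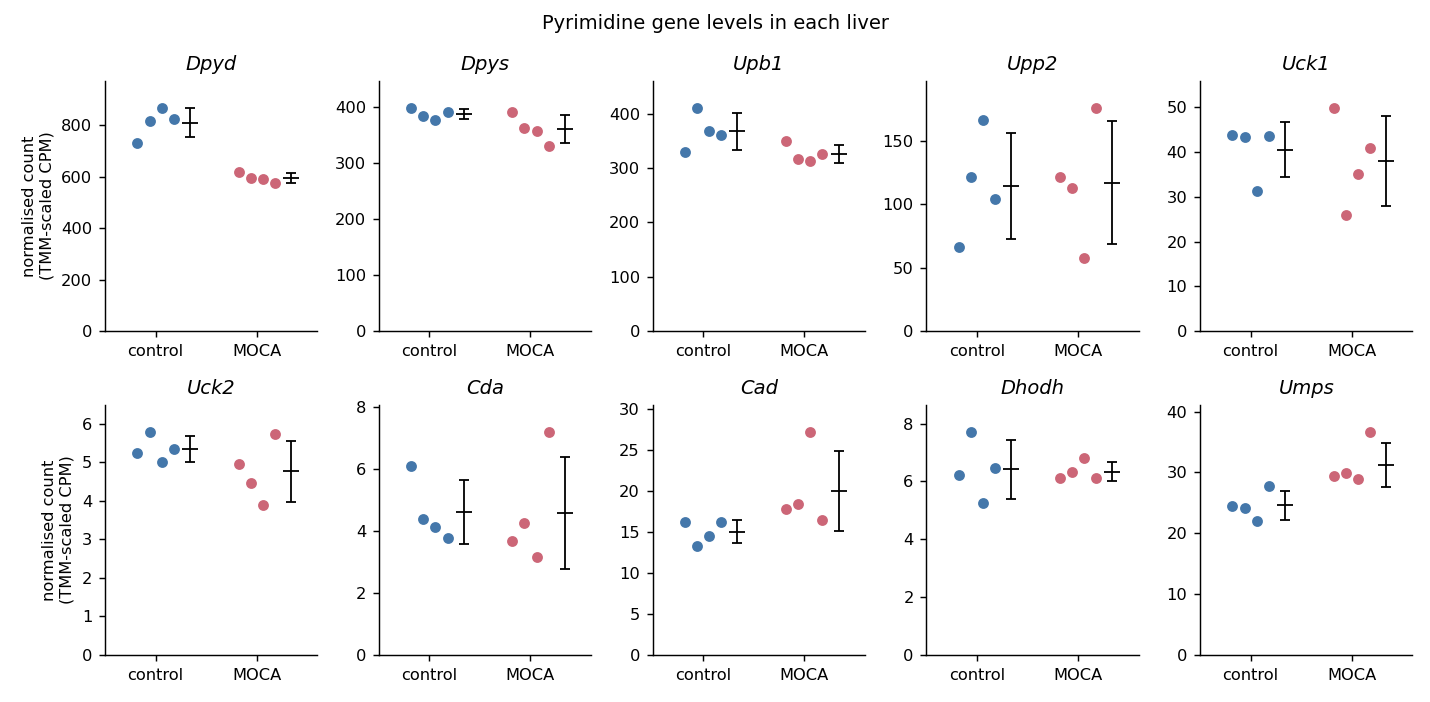
Normalised count (y axis, TMM-scaled CPM, linear from 0) of each of the 10 genes in the 4 control livers (blue) and the 4 MOCA livers (red), 1 point per mouse in the order of the replicate numbers, with the mean and SD as a black bar. The 4 MOCA points of Dpyd (576 to 619.9) lie below the 4 control points (731 to 868), those of Cad and Umps lie above their controls, and the other 7 genes overlap.

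Dpys, on chromosome 15 (39768485 to 39857470), was narrowly spread in control livers, at 398, 384, 376 and 390.2. In MOCA livers it was 391, 362, 358 and 330.5, so that MOCA replicate 1 lay within the control range and the other 3 below it. Its means were 387 ± 9.48 and 360.2 ± 24.8 (log2 fold change -0.11, 95% interval -0.26 to 0.05, limma adjusted p = 0.469). Upb1, on chromosome 10 (75406911 to 75441679), was 329.5, 410.5, 368 and 360.2 in control livers. With MOCA it was 349, 316, 313 and 325. Here control replicate 1, the lowest control, fell inside the MOCA range. The means were 367 ± 33.4 and 326 ± 16.5 (log2 fold change -0.17, 95% interval -0.34 to 0.0058, limma adjusted p = 0.303). The intervals of both genes leave room for a fall, though for neither as deep as the -0.44 fitted for Dpyd.

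Whether Dpyd fell relative to the enzymes that follow it was tested as a ratio within each mouse, a comparison added after the values were seen. The level of Dpyd over that of Dpys was 1.84, 2.13, 2.31 and 2.11 in control livers and 1.59, 1.64, 1.66 and 1.74 in MOCA livers. Dpyd over Upb1 was 2.22, 1.99, 2.36 and 2.29 in control and 1.77, 1.88, 1.89 and 1.77 in MOCA livers. In neither ratio did the groups overlap, so the fall of Dpyd exceeded that of either partner. The log2 ratio differed by -0.34 for Dpys and by -0.27 for Upb1 (two-sided exact permutation test over 70 arrangements, p = 0.0286 in each, also after adjustment over the 2 ratios, the smallest p that 4 against 4 mice can give). Because the ratios were chosen after the fall of Dpyd was seen, this p adds no independent support.

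**Figure D2:**
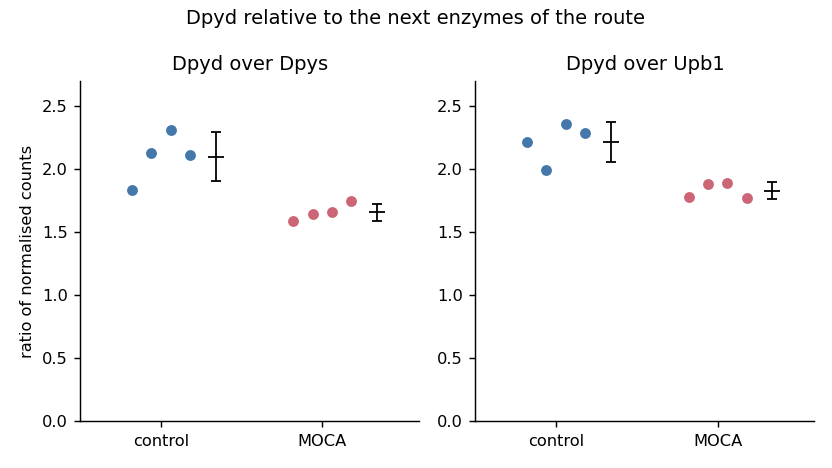
Ratio of the normalised count of Dpyd to that of Dpys (left) and of Upb1 (right), y axis linear from 0, 1 point per mouse, control in blue and MOCA in red, mean and SD in black. All 4 MOCA ratios (1.59 to 1.74 on the left, 1.77 to 1.89 on the right) lie below all 4 control ratios (1.84 to 2.31 and 1.99 to 2.36).

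Per kb of spliced transcript, Dpyd had the highest control level of the 10 genes, 180.5 ± 12.7 normalised counts per kb, and the breakdown enzymes took the first 3 places. Dpys followed at 157 ± 3.84 and Upb1 at 121 ± 10.97. The control ranges of Dpyd (163 to 193) and Dpys (152 to 162) lay close together without overlapping. In MOCA livers the per-kb means of these 2 genes stood in the opposite order, 133 ± 4.01 for Dpyd and 146 ± 10.04 for Dpys, with overlapping ranges (128 to 138 and 134 to 159). Upp2 came next in control livers at 45.9 ± 16.6 per kb, then Uck1 (20.2 ± 3.07), Umps (7.06 ± 0.689), Cda (5.44 ± 1.22), Dhodh (3.15 ± 0.501), Cad (2.10 ± 0.200) and Uck2 (1.13 ± 0.0708). Among neighbours in this order, Umps and Cda overlapped in control livers (6.31 to 7.97 and 4.47 to 7.21), whereas the other neighbours did not. The length used is that of the longest coding transcript in GENCODE, and which isoforms the livers express was not tested.

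Albumin alone made up 5.89% to 7.01% of the summed counts of a library, and all 8 hepatocyte markers were listed. Listing does not tell liver apart, since marker lists of other cell types were also complete. Of the markers tested in the 10 lists used, none was called by limma. No neutrophil marker was tested, and 4 of 6 cholangiocyte, 4 of 5 erythroid and 5 of 8 proliferating cell markers were. The summed level of the hepatocyte markers, of which albumin takes the most, was 102627 to 118689 in control and 90429 to 102534 in MOCA livers, without overlap, a change of -8.34% in the mean. Divided by that sum, Dpyd was 68.9 to 84.6 per 10000 in control and 58.4 to 63.7 in MOCA livers, again without overlap, a change of -20.04%. By the same measure Dpys differed by 1.14% and Upb1 by -2.98%, with overlapping groups. Summed stellate cell and fibroblast markers were also lower without overlap (605 to 671 and 500.8 to 602) and summed erythroid markers higher (252 to 442 and 472 to 524), and their part in the result was not tested. All 4 tested erythroid markers had an unadjusted limma p under 0.05. So did 2 markers each of the hepatocyte, pericentral hepatocyte, sinusoidal endothelium and stellate cell lists. The other lists held none, and the share over all genes tested was 17.5%. The groups overlapped for summed cholangiocyte (41.2 to 49.8 and 36.5 to 55.5), Kupffer cell (231 to 278 and 242 to 332), sinusoidal endothelium (335 to 396 and 322 to 336) and neutrophil markers (0.370 to 1.10 in control and 0.509 to 1.10 in MOCA livers). Pericentral (7266 to 8120 and 6165 to 7621) and periportal hepatocyte markers (7273 to 9471 and 7171 to 8527) overlapped between the groups, with all 8 and all 7 listed. In whole liver, fewer cells of a type and less RNA per cell cannot be told apart.

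Dpyd is among the longest genes of the liver transcriptome, rank 23 by genomic span of the 11440 tested genes with a RefSeq record. Of the 90 tested genes that span at least 500 kb, a limit set after the values were seen, 64 had a log2 fold change below 0 and 26 above 0, where 5868 of all 12008 genes tested were below 0. Their median log2 fold change was -0.11, against 0.0051 over all genes tested, and 5 were called lower and 1 higher, shares to be read against 0.266% and 0.4% of all genes tested. Dpyd itself was 1 of those 5.

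The 5 genes whose levels over the 8 mice followed Dpyd most closely, of 9273 compared, were 1110038B12Rik (Pearson r = 0.996, Spearman rho = 0.905), Pzp (0.994 and 0.952), C3 (0.989 and 0.976), Pigr (0.980 and 0.905) and Sptb (0.972 and 0.976). The difference between the groups enters these values, and the genes were picked for them, so they describe likeness only. C3, the central complement component, had means of 14580 ± 1021 and 9996 ± 423 in the 2 groups (log2 fold change -0.54, limma adjusted p = 0.0726, edgeR adjusted p = 0.03 and, with equal column sums, limma adjusted p = 0.0392). Pigr, which carries IgA into bile, was 2680.3 ± 229.7 and 1842 ± 134 (-0.54, limma adjusted p = 0.0344). Pzp, an alpha-macroglobulin of plasma, was 6145 ± 292 and 5002 ± 83.5 (-0.30, limma adjusted p = 0.173), and 1110038B12Rik, a non-coding RNA, was 6.31 ± 0.744 and 3.73 ± 0.149 (-0.62, limma adjusted p = 0.027). Sptb, a beta-spectrin, was 7.40 ± 0.761 and 4.07 ± 0.592 (-0.73, limma adjusted p = 0.0209). With 1 mouse left out at a time, 1110038B12Rik was called in 2, Pigr in 2, Sptb in 5, and C3 and Pzp in 0 of 8 fits. Without a filter on low values Pigr was not called (limma adjusted p = 0.0619), nor was C3 (limma adjusted p = 0.193). With replicate number as a block C3 was not called either (limma adjusted p = 0.217).

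**Figure D3:**
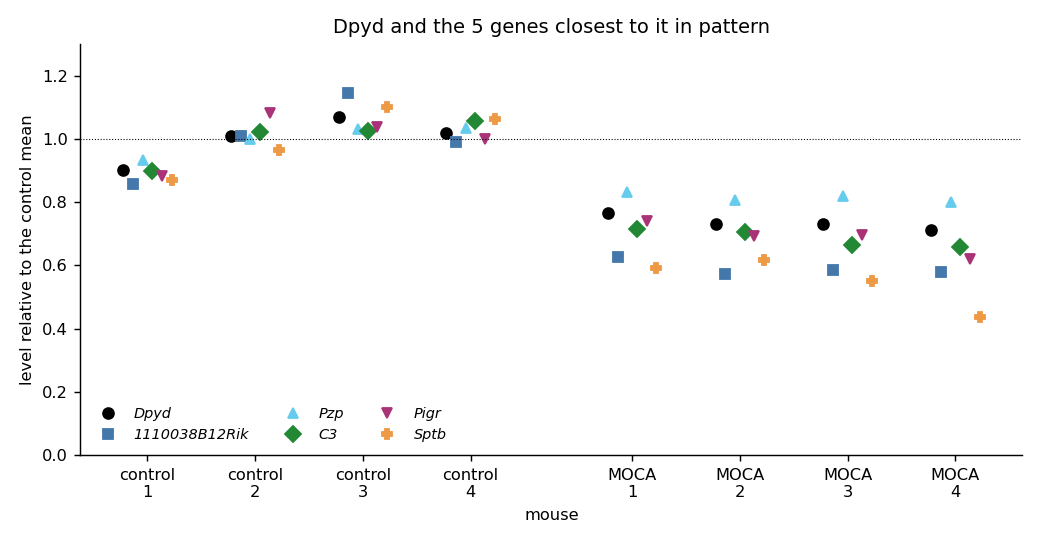
Level of Dpyd and of the 5 genes closest to it in pattern, each divided by its own control mean (y axis, linear from 0), in each of the 8 mice (x axis). Every MOCA value lies below every control value of the same gene, Dpyd at 576 to 619.9 against 731 to 868 before division.

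Upp2, the uridine phosphorylase of liver, varied more between mice than between groups. It was 66.2, 121, 166 and 104 in control livers and 121, 113, 57.5 and 176 in MOCA livers, so both the lowest and the highest of the 8 values came from MOCA mice. The coefficient of variation was 36.3% in control and 41.5% in MOCA livers, against a counting error of 2.32%. The means were 115 ± 41.6 and 117 ± 48.5 (log2 fold change -0.0027, 95% interval -0.70 to 0.69, limma adjusted p = 0.998), an interval too wide to exclude a change as large as that of Dpyd in either direction. Upp2 (chromosome 2, 58566317 to 58795846) overlaps Acvr1, and whether the counting used strand is not stated. Acvr1, a BMP receptor, had means of 13.8 and 12.0 in the 2 groups. The same doubt holds for Uck1, which overlaps Pomt1 (20.9 and 22.8), for Cad, which overlaps Atraid (39.9 and 37.4), and for Dpys, which overlaps the non-coding Gm16291 (5.09 and 4.96). None of these 4 overlapping genes was called by limma (adjusted p 0.281 for Acvr1, 0.509 for Pomt1, 0.567 for Atraid and 0.998 for Gm16291).

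The salvage genes showed no difference that passed the test. Uck1, a uridine-cytidine kinase (chromosome 2, 32255002 to 32260105), was 43.7, 43.4, 31.3 and 43.6 in control and 49.9, 26.0, 35.1 and 40.9 in MOCA livers. Control replicate 3 stood apart from 3 nearly equal controls, and the MOCA mice enclosed the whole control range (log2 fold change -0.11, 95% interval -0.50 to 0.27, limma adjusted p = 0.779). Uck2, the kinase of the same family that is often high in tumour cells (chromosome 1, 167222895 to 167285933), was 5.23, 5.80, 4.998 and 5.34 in control and 4.96, 4.45, 3.89 and 5.74 in MOCA livers. With 60 to 94 reads per library its counting error was 11.1%, and the 3 lowest MOCA values lay under the control range (log2 fold change -0.15, 95% interval -0.40 to 0.11, limma adjusted p = 0.548). Cda, which turns cytidine into uridine (chromosome 4, 138338528 to 138368311), was 6.10, 4.38, 4.13 and 3.78 in control and 3.69, 4.25, 3.17 and 7.21 in MOCA livers. MOCA replicate 4 had the highest and MOCA replicate 3 the lowest Cda of all 8 mice (log2 fold change -0.04, 95% interval -0.48 to 0.40, limma adjusted p = 0.944). Its coefficient of variation, 22.4% in control and 39.4% in MOCA livers, exceeded the counting error of 11.6%.

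In de novo synthesis the members differed. Cad, a fused enzyme that carries out the opening steps of the route (chromosome 5, 31054620 to 31078479), was 16.2, 13.3, 14.4 and 16.2 in control livers and 17.8, 18.4, 27.2 and 16.5 in MOCA livers. The lowest MOCA value, from replicate 4, stood just above the highest control, while MOCA replicate 3 was far above the rest. The means were 15.02 ± 1.42 and 19.97 ± 4.89 (log2 fold change 0.37, 95% interval 0.06 to 0.67, limma adjusted p = 0.215), and without MOCA replicate 3 the log2 fold change was 0.22. Umps, which makes uridine monophosphate from orotate (chromosome 16, 33954782 to 33967038), was 24.5, 24.2, 22.0 and 27.8 in control and 29.5, 29.8, 28.9 and 36.7 in MOCA livers. Its means were 24.6 ± 2.40 and 31.2 ± 3.68 (log2 fold change 0.33, 95% interval 0.11 to 0.55, limma adjusted p = 0.134), and leaving out 1 mouse at a time gave 0.25 to 0.39. Over all genes tested, 5.5% had every MOCA value above every control value, so 2 of 10 members is to be read against that share. Counting either direction, the groups did not overlap for 3 of the 10 members and for 10.5% of all genes tested.

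Dhodh, the mitochondrial enzyme between them that makes orotate (chromosome 8, 109593244 to 109608699), was 6.22, 7.73, 5.25 and 6.48 in control livers. In MOCA livers it was 6.11, 6.32, 6.80 and 6.11, within the control range in all 4 mice (log2 fold change -0.0071, 95% interval -0.25 to 0.24, limma adjusted p = 0.982). Its 85 to 120 reads per library gave a counting error of 9.88%, between the coefficients of variation of the control (15.9%) and MOCA mice (5.17%). Summed markers of proliferating cells, which use much de novo synthesis, were 27.0 to 31.8 in control and 28.6 to 47.9 in MOCA livers. The highest sum belonged to MOCA replicate 4, which had the lowest Cad and the highest Umps of the MOCA mice, and the 3 other MOCA mice lay within the control range.

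Across the 10 genes, 3 had an unadjusted limma p under 0.05 (Dpyd, Cad and Umps), where 17.5% of all genes tested did. The log2 fold change was below 0 for 8 and above 0 for 2, while 5868 of all 12008 genes tested were below 0. Among the 8 members below 0, Upp2, Cda and Dhodh were near 0 and turned positive with equal column sums. The median log2 fold change was -0.07 for the 10 genes and 0.0051 for all genes tested. Those that did not pass had 95% intervals that all included 0 except those of Cad and Umps.

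**Figure D4:**
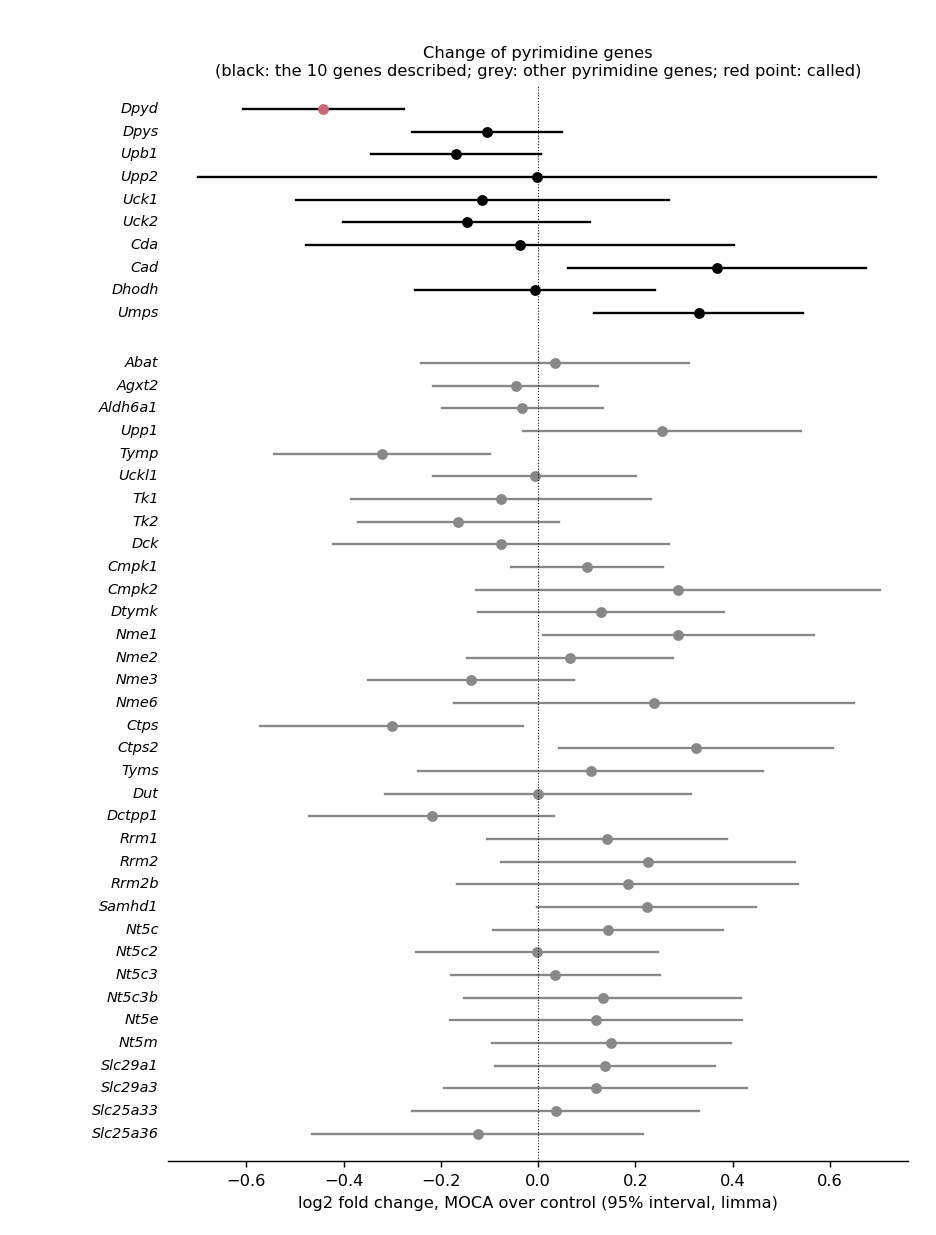
Log2 fold change of MOCA over control (x axis) with its 95% interval from limma, for the 10 genes described (black) and the 35 tested members of a list of other pyrimidine genes (grey), 1 gene per line. Dpyd (-0.44) is the single called gene and is drawn with a red point, while Cad (0.37) and Umps (0.33) lie at the other side of 0.

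Other genes of pyrimidine metabolism, taken from a list of 41 chosen for their role with earlier results known, held no call. Of these, 39 were listed and 35 tested. None was called by limma, edgeR or DESeq2, which called 0.666%, 0.675% and 3.54% of all genes tested. Of the 35, 4 (11.4%) had an unadjusted limma p under 0.05, against 17.5% of all genes tested. The log2 fold change was above 0 for 22 and below 0 for 13, with a median of 0.10 against 0.0051 over all genes tested. The enzymes that take on the products of Upb1 had overlapping groups. Abat, which transaminates beta-alanine, was 388 ± 56.8 in control and 397 ± 56.9 in MOCA livers. Agxt2, which acts on beta-aminoisobutyrate, was 57.6 ± 5.21 and 55.6 ± 2.12, and Aldh6a1, which oxidises the semialdehydes formed, was 595 ± 34.3 and 582 ± 33.9. Their limma adjusted p lay between 0.806 and 0.917, and their 95% intervals reached from -0.24 to 0.31 for Abat, from -0.22 to 0.12 for Agxt2 and from -0.20 to 0.13 for Aldh6a1.

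Tymp, thymidine phosphorylase, which yields the thymine that Dpyd reduces, had the smallest p of the list. It was 141, 127, 116 and 137 in control and 125, 92.7, 104 and 95.2 in MOCA livers, with MOCA replicate 1 inside the control range (log2 fold change -0.32, 95% interval -0.54 to -0.10, limma adjusted p = 0.154). Upp1, the second uridine phosphorylase, was low at 0.882 ± 0.207 and 1.24 ± 0.174 (limma adjusted p = 0.339), and Uckl1, a kinase-like relative of Uck1, was 8.82 ± 0.585 and 8.78 ± 0.773 (limma adjusted p = 0.978).

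The CTP synthases had fold changes of opposite sign, and neither passed the test. Ctps was 4.65, 3.54, 3.52 and 3.90 in control and 2.55, 2.64, 3.43 and 3.30 in MOCA livers, without overlap (log2 fold change -0.30, limma adjusted p = 0.242). It had 40 to 80 reads per library. Its counting error of 13.4% was close to its coefficient of variation, 13.5% in control and 15.1% in MOCA livers. Ctps2 was 10.1, 8.57, 7.34 and 7.02 in control and 11.3, 9.54, 9.14 and 12.3 in MOCA livers, where control replicate 1 lay inside the MOCA range (log2 fold change 0.32, limma adjusted p = 0.231). Nme1, a nucleoside diphosphate kinase, was 22.0 ± 4.32 and 26.8 ± 2.27 (limma adjusted p = 0.27), and Samhd1, which hydrolyses deoxynucleotides, was 17.1 ± 1.89 and 20.2 ± 2.19 (limma adjusted p = 0.29). Below the minimum for testing, 2 nucleoside transporters had scaled values that did not overlap between the groups, in opposite directions. They were named for that after their values were seen, and 10.5% of all genes tested also had groups without overlap. Slc29a2 was 1.39, 0.966, 1.17 and 1.14 in control and 0.573, 0.903, 0.518 and 0.367 in MOCA livers, from 6 to 24 reads per library. Slc28a3 was 0.129 to 0.232 in control and 0.258 to 0.324 in MOCA livers. Its reads, 2 to 4 in control and 4 to 5 in MOCA livers, were not apart.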

How the data were processed

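Per the labels' protocols, total liver RNA from RNeasy columns went into rRNA-depleted, strand-marked MGIEasy libraries. The submitters' processing notes name Trimmomatic 0.38, Bowtie2, RSEM, edgeR and the build mm10, without role or order, while the annotation and strand setting of the counting are not stated. The strain label names F1-TKm30 mice and the treatment label C57BL mice; the former is used. The authors deposited 1 table of normalised counts, a scaled signal for each gene. In it 100% of values were whole multiples, within 0.001, of 1 step per column, so whole reads were recovered, and the steps equal those of TMM factors recomputed with edgeR. Number of columns not used: 0.

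Of the listed genes, 12008 reached a value of 1 in at least 4 libraries. They were tested on log2(value + 1) by limma 3.58.1 (R 4.3.3; lmFit, then eBayes with trend) without covariates. On the recovered reads edgeR 4.0.16 called 81 genes and DESeq2 1.42.0 called 425. In simulated reads for MOCA against control over 12008 genes, limma recovered 54% of 200 genes changed 1.5-fold (2 false calls) and 90% of those changed 2-fold (13 false calls). The members and gene lists were chosen with earlier results of these data known. Named were all members, 6 further pyrimidine genes, the 4 others with the smallest p, and the 5 genes with a mean of at least 5 that correlated best with Dpyd. Positions come from RefSeq (GRCm38.p6), lengths from GENCODE. Each mouse is numbered separately in the labels, and no batch is given. Intervals and counting errors, the latter from reads without molecular identifiers, cover only the error they name. Alternatives were other pseudocounts, filters, scalings, tests, a replicate block and each mouse left out. The result of 1 marker list is not reported here.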

Additional observations from a re-analysis of the deposited data

Results flagged for a closer look

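In 40 groups of 4 mice, 2 for each of 20 pyrimidine genes, the highest or lowest mouse was compared with its group by Dixon's ratio of gap to range (95% critical value), which chance alone exceeds in about 1 of 20 groups. It was exceeded in 2. Uck1 in control replicate 3 was 31.3, below the other controls at 43.4 to 43.7. Umps in MOCA replicate 4 was 36.7, above the other MOCA mice at 28.9 to 29.8.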

How the results depend on the processing

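Dpyd was negative under all 18 alternatives (log2 fold change -0.49 to -0.39) and called in 9 of the 10 that kept all mice; the exception was the replicate block (0 of the 10 genes called, Dpyd limma adjusted p = 0.0904). The block also lowered the calls over all genes from 80 to 30. The replicate numbers of the 2 groups share only a number: correlations of the deviations of same-numbered mice were -0.0736, -0.00138, 0.036 and -0.0441, and no mouse correlated best with its own number. Leaving out 1 mouse at a time gave 29 to 77 calls over all genes and 0 to 1 among the 10. Over all genes equal column sums gave 169 calls and DESeq2 425, and the cause was not tested. The other pyrimidine genes held 0 calls under every alternative. Over all genes tested, the median log2 fold change ranged from -0.0062 with upper quartile scaling to 0.0531 with equal column sums, against 0.0051 in the main fit. Under the block 1110038B12Rik, Pigr and Sptb were not called either (limma adjusted p = 0.0896, 0.105 and 0.0846). Signs turned for genes near 0. With equal column sums Upp2 was 0.0504, Cda 0.0066, Dhodh 0.0397, Uckl1 0.0406, Agxt2 0.0065 and Aldh6a1 0.0211, and Upp2 was 0.0281 with edgeR and 0.0251 with DESeq2. With 1 mouse left out, the range was -0.24 to 0.30 for Upp2, -0.26 to 0.0495 for Uck1, -0.24 to 0.0853 for Cda, -0.0864 to 0.0746 for Dhodh, -0.0415 to 0.0491 for Uckl1 and -0.0748 to 0.11 for Abat. The ratios of Dpyd to Dpys and Upb1 kept their sign without each mouse, with an exact permutation p of 0.0571 without any 1 of the MOCA mice. The counting error exceeded the coefficient of variation of the control mice for Uck2 (11.1% against 6.28%) and that of the MOCA mice for Dhodh (9.88% against 5.17%).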
